A study of Mus musculus with 17 samples.

Results

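The microRNAs (miRNAs) numbered miR-297, miR-466, miR-467 and miR-669 were described in mouse embryonic stem cells (ESCs) and in cells differentiated from them. Members were chosen by name alone, taking every row of the mature miRNA table with 1 of these 4 numbers and any letter, copy or arm. This gave 64 of the 1033 rows: 6 of miR-297, 26 of miR-466, 10 of miR-467 and 22 of miR-669. Of the 64, 31 were named as 5p arms, 29 as 3p arms, and 4 carried no arm. Small RNA was sequenced from the ESC lines B8 and D3. Day 0 cells were undifferentiated ESCs grown without feeder cells in serum medium with LIF, the cytokine that holds mouse ESCs undifferentiated. Day 7 embryoid bodies, aggregates made in hanging drops, and day 21 outgrowths of such bodies were grown without LIF, with retinoic acid (RA) and the ITS and N2 supplements. The 14 libraries analysed were 3 of B8 day 0, 3 of B8 day 7, 3 of D3 day 0, 2 of D3 day 7 (replicates 2 and 3) and 3 of D3 day 21. The 3 labelled samples of B8 day 21 were not analysed here. The labels name no genotype or strain beyond the line, and do not say whether replicates were separate cultures, so that a p-value here reflects scatter among libraries whose origin, biological or technical, is not given.

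A miRNA is cut from a hairpin precursor, whose 2 sides give the 5p and the 3p arm, and is loaded into an Argonaute protein, where it represses mRNAs that pair with its seed. Sfmbt2 encodes a Polycomb group protein. In the mouse the gene is imprinted and expressed from the paternal copy, most of all in extraembryonic tissue, and an intron of the gene holds a large cluster of miRNA hairpins that multiplied within rodents. The cluster is known for its expression in ESCs and in the placenta.

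In the GENCODE M21 annotation of GRCm38, the build named mm10 in the submitters' processing notes, Sfmbt2 lies on chromosome 2 from 10370510 to 10595253 on the plus strand. Of 81 annotated precursors with these 4 numbers, 71 lie inside the gene: 29 of miR-669, 23 of miR-466, 14 of miR-467 and 5 of miR-297. They run from 10466663 to 10518279, a span of 51.6 kb, and all lie in 1 intron (10461473 to 10523944), with 0 overlaps of an exon. The other 10 precursors lie on 7 other chromosomes. The intron is built of repeated units: Mir669a has 12 annotated copies with a median spacing of 2457 bases, Mir467a has 10 at 2462 bases, and Mir466b has 8 at 2470 bases. By name, 60 members had at least 1 precursor in Sfmbt2, 3 of them (miR-466f and its 2 arms) with copies elsewhere too. The remaining names were miR-466k and miR-466i-3p, with precursors only on chromosomes 3 and 13, and the 2 arms of miR-466a, which matched no precursor by name. A precursor named Mir466, with no letter, lies in the intron (10507918 to 10507990) and was matched to no member. Whether it gives miR-466a was not tested.

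RefSeq mature sequences in GRCm38.p6 matched 2 of the 64 members by name. They are shown because these are the 2 members whose precursors lie only outside Sfmbt2; both are on the plus strand, at chr3:85467396-85467418 and chr13:17747552-17747573, and capitals mark the seed, bases 2 to 8.
miR-466k: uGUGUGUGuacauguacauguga
miR-466i-3p: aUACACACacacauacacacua
Both had few reads, at most 3 in any library for miR-466k and at most 5 for miR-466i-3p, so they carry almost none of the summed values.

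The deposited values are reads divided by a factor for each library, on a scale whose column totals ranged from 46965.1 to 830401.5, a 17.7-fold range. miRNA reads per library ranged from 56377 to 1060306. A difference between groups therefore depended on the scaling, and members are given on the deposited scale, as a percent of the column total, and after median-of-ratios scaling, which sets to 0 the typical change of the 319 rows detected in all libraries. Rows miR-10a and miR-10b together averaged 43.9% of the column total in B8 day 7, 65.3% in D3 day 7 and 13.2% in D3 day 21, against 0.629% and 0.113% in day 0 cells of B8 and D3, so the percent outside these rows is given too. Defining ESC miRNAs, the 14 rows of the miR-290 cluster, summed to 27.4% in B8 day 0 and 22.1% in D3 day 0, 8.60% in B8 day 7, 0.668% in D3 day 7 and 1.13% in D3 day 21. Summed neural miRNAs (7 rows) stood at 0.0302% and 0.0293% in B8 and D3 day 0, 1.17% and 1.38% in B8 and D3 day 7, and 0.700% in D3 day 21. Mesenchymal and fibroblast miRNAs (9 rows) stood at 1.73% and 0.868% in B8 days 0 and 7. In D3 they stood at 0.214%, 1.20% and 6.34% at days 0, 7 and 21.

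The summed members made up 1.20% of all miRNA signal in B8 ESCs and 1.60% in D3 ESCs. Their share was 1.12% in the B8 day 7 libraries, 0.0662% in those of D3 day 7 and 0.193% in those of D3 day 21. In B8 day 0 the sum was 1.10%, 1.14% and 1.37% of the column total in replicates 1, 2 and 3 (1.20 ± 0.144%, SD, n = 3). In B8 day 7 it was 1.13%, 1.31% and 0.917% (1.12 ± 0.198%, SD, n = 3). The 2 B8 groups overlapped on this scale. In D3 day 0 it was 1.48%, 1.64% and 1.67% (1.60 ± 0.104%, SD, n = 3), above every B8 library. In D3 day 7 it was 0.0623% and 0.0700% (0.0662 ± 0.0054%, SD, n = 2), 24.1-fold below D3 day 0. In D3 day 21 it was 0.185%, 0.221% and 0.172% (0.193 ± 0.025%, SD, n = 3), 8.28-fold below D3 day 0, and the 3 D3 groups did not overlap. In bulk samples, fewer cells that express a miRNA and less of it per cell cannot be told apart. The widest 95% Wilson interval of a library's share was 0.106 percentage points to either side, in D3 day 0 replicate 3 (1.57% to 1.78%). That interval was far narrower than the differences of D3 day 7 and day 21 from D3 day 0. In B8 the widest ran from 1.31% to 1.43%, in day 0 replicate 3. Such intervals cover counting error only.

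On the other scales the D3 sums were lower at the later days too, by other factors. Outside miR-10a and miR-10b, the D3 sum was 1.60% at day 0, 0.191% at day 7 (8.38-fold lower) and 0.222% at day 21 (7.19-fold lower). As deposited, the D3 sums were 953 ± 183 (SD, n = 3) at day 0, 511 ± 8.8 (SD, n = 2) at day 7 and 436 ± 86.6 (SD, n = 3) at day 21, so the day 7 sum was 1.86-fold lower than at day 0. After median-of-ratios scaling it was 9.08-fold lower. In none of these did a library of D3 day 7 or day 21 overlap one of D3 day 0. The B8 sums ran the other way or level: 1666 ± 28.4 (SD, n = 3) at day 0 and 1918 ± 153 (SD, n = 3) at day 7 as deposited, 1.15-fold higher, 1.65-fold higher outside miR-10a and miR-10b, 1.35-fold higher after median-of-ratios scaling, and 1.07-fold lower as a percent of the column total.

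**Figure D1:**
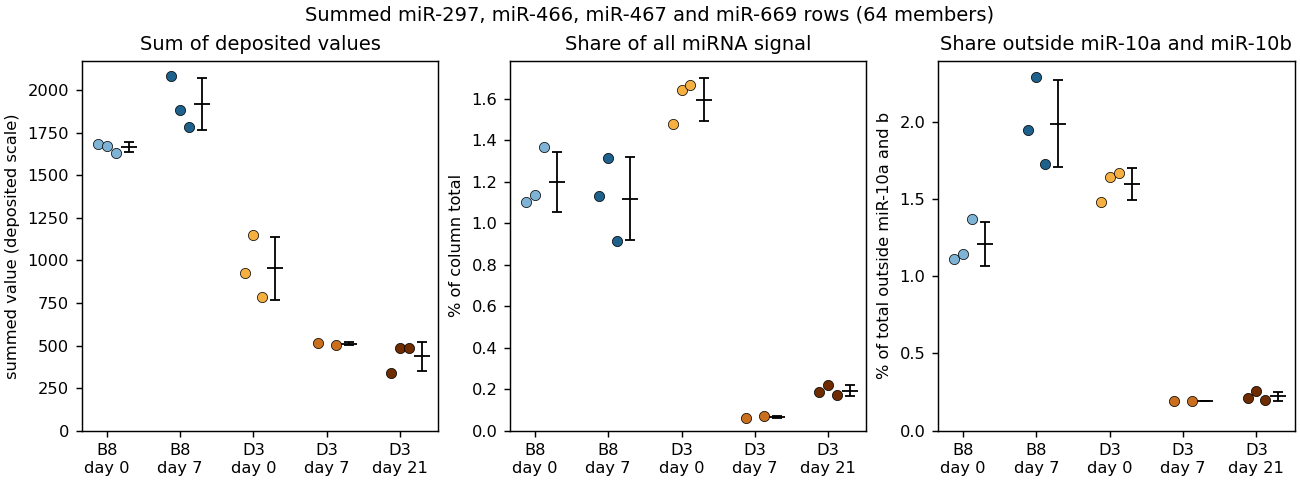
Summed value of the 64 members in each library (points) with the group mean and SD (black bars), as deposited (left), as a percent of the column total (middle) and as a percent outside miR-10a and miR-10b (right). D3 day 7 and day 21 libraries lie below all day 0 libraries in each panel, while B8 day 7 libraries overlap B8 day 0 in the middle panel only.

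By number, miR-669 held the largest part of the list in every group, from 53.2% of the summed value in B8 day 0 to 61.6% in B8 day 7. miR-467 held 29.4% to 35.5%, miR-466 held 8.48% to 10.8%, and miR-297 held less than 1% in each group. The B8 day 7 group stood apart in this: miR-669 stood at 61.6 ± 2.4% (SD, n = 3) against 53.2 ± 0.37% (SD, n = 3) in B8 day 0, and miR-467 stood at 29.4 ± 3.1% against 35.3 ± 0.31%. In D3 the part held by miR-669 moved less, at 54.8 ± 1.1%, 56.6 ± 0.36% and 54.7 ± 0.92% at days 0, 7 and 21. Each of the 4 numbers was lower in D3 day 7 than in D3 day 0 as a percent of the column total: miR-669 at 0.0375% against 0.875%, miR-467 at 0.0216% against 0.547%, miR-466 at 0.00682% against 0.163%, and miR-297 at 0.000337% against 0.0117%.

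A few members carried most of the signal. The 10 most abundant members held 81.2% of the list in B8 day 0 and 80.0% to 81.6% in the other groups. miR-669a-5p alone held 17.0% to 21.6%, followed on average over the groups by miR-467a-5p, miR-467c-5p, miR-669a-3p and miR-669l-5p. The order below miR-669a-5p changed by group: miR-467c-5p was second in D3 day 0 with 15.6% of the list, and miR-669a-3p was second in B8 day 7 with 13.2%. The hairpins with the most annotated copies, miR-669a with 12 and miR-467a with 10, were also the most abundant, at 0.251% and 0.114% of the column total with both arms summed. Other levels did not rank by copy number: miR-467c-5p and miR-669l-5p, with 1 precursor each (10473931 to 10474027 and 10468971 to 10469068 on chromosome 2), stood at 0.105% and 0.0751% of the column total on average over the groups, against 0.0197% for miR-466b-3p with 8 copies. At the other end, 21 members had under 10 reads in all libraries together and 24 had no read in at least 1 group. The order of members by level was alike in ESCs of the lines, with a Spearman rho of 0.962 across the 64 members, given as a description. Reads that fit several of these near-identical names may have been shared among them by rules that the sources used here do not give, so values of single members are less certain than the sums.

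Tests used limma on log2 values of the 521 rows that passed a filter on low values, with Benjamini-Hochberg adjusted p-values over all 521 and a threshold of 0.05. The filter kept 42 members: 3 of miR-297, 16 of miR-466, 8 of miR-467 and 15 of miR-669, holding 99.6% of the list's reads. The other 22 were too low to test, none of them above 0.000328% of the column total on average.

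In B8, 4 members rose from day 0 to day 7, all of miR-669, and 0 of the 42 fell on the deposited scale (limma; 2 were lower at an unadjusted p under 0.05). Among all rows, 21.9% were higher and 28.0% lower by the same test, so the share of members that rose was below that of all miRNAs and the count of 0 that fell was far below it. After median-of-ratios scaling 8 members rose and 0 fell (0 at an unadjusted p under 0.05), beside 26.9% and 25.9% of all rows. The 8 were 6 of miR-669 and 2 of miR-467. In contrast, 11 of the 13 tested rows of the miR-290 cluster and 6 of the 7 of the miR-302 cluster, both of them ESC clusters, fell as deposited in B8. In D3 the course of the miR-302 cluster depended on the scaling and the day. As deposited, 1 of its 7 rows rose and 1 fell at day 7, and 4 rose and 0 fell at day 21. After median-of-ratios scaling, with equal column totals and by edgeR on the recovered reads, 6, 7 and 7 fell at day 7 and 0 rose. At day 21 these gave 3, 2 and 3 higher and 1, 2 and 2 lower. Its summed share was 0.179%, 0.0220% and 0.251% of the column total at D3 days 0, 7 and 21. With equal column totals, 3 members were higher and 4 lower in B8 day 7, beside 18.2% and 35.7% of all rows. The 3 were of miR-669, and the 4 were 2 of miR-466 and 2 of miR-467. edgeR on the recovered reads called 11 members higher and 0 lower, beside 27.4% and 23.4% of all rows. The 11 were 8 of miR-669 and 3 of miR-467.

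The B8 risers included both a major and several minor products. miR-669a-3p stood at 132, 131 and 123.6 in B8 day 0 and at 240, 313 and 209 in B8 day 7 on the deposited scale. All 3 day 7 libraries lay above day 0, and the log2 change was 0.96 (SE 0.24, limma adjusted p = 0.0014). Its partner miR-669a-5p, from the other arm of miR-669a hairpins, stood at 353, 368 and 352 in day 0 and 409, 356 and 343 in day 7. The groups overlapped, and its log2 change of 0.04 (SE 0.25) did not pass (limma adjusted p = 0.884).

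miR-669f-5p, from 1 precursor near the start of the cluster (10467229 to 10467349), stood at 35.6, 32.2 and 34.6 in B8 day 0 and 79.2, 67.1 and 65.9 in B8 day 7. All day 7 libraries were higher, with a log2 change of 1.04 (SE 0.28, limma adjusted p = 0.00332). miR-669c-5p (10509296 to 10509404) stood at 33.9, 17.6 and 21.6 in day 0 and 44.7, 62.6 and 74.1 in day 7, again without overlap, with a log2 change of 1.32 (SE 0.37, limma adjusted p = 0.0046). miR-669h-5p, from the last precursor of the cluster (10518155 to 10518279), was lower in level, at 6.12, 5.85 and 4.32 in day 0 and 11.8, 7.27 and 20.6 in day 7, and its log2 change of 1.11 (SE 0.46) passed narrowly (limma adjusted p = 0.0478): it missed the threshold with equal column totals and without any 1 of 10 of the 14 libraries, such as B8 day 7 replicate 3 (log2 change 0.73, limma adjusted p = 0.194). After median-of-ratios scaling 2 members of miR-467 passed in B8, among them miR-467e-5p (log2 change 0.56, limma adjusted p = 0.0344). As deposited, the members of miR-467 and miR-466 with the highest levels did not pass. miR-467a-5p stood at 272, 263 and 265 in day 0 and 266, 153 and 257 in day 7, where replicate 2 stood low, and miR-467c-5p at 208.1, 217 and 193 against 189, 167 and 188. Their log2 changes were -0.29 (limma adjusted p = 0.385) and -0.19 (limma adjusted p = 0.545). miR-466b-3p spread widely in B8 day 7, at 59.6, 45.9 and 21.96 against 46.2, 46.8 and 43.2 in day 0, and miR-466c-5p stood at 45.5, 44.7 and 37.1 against 40.1, 50.4 and 35.4.

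**Figure D2:**
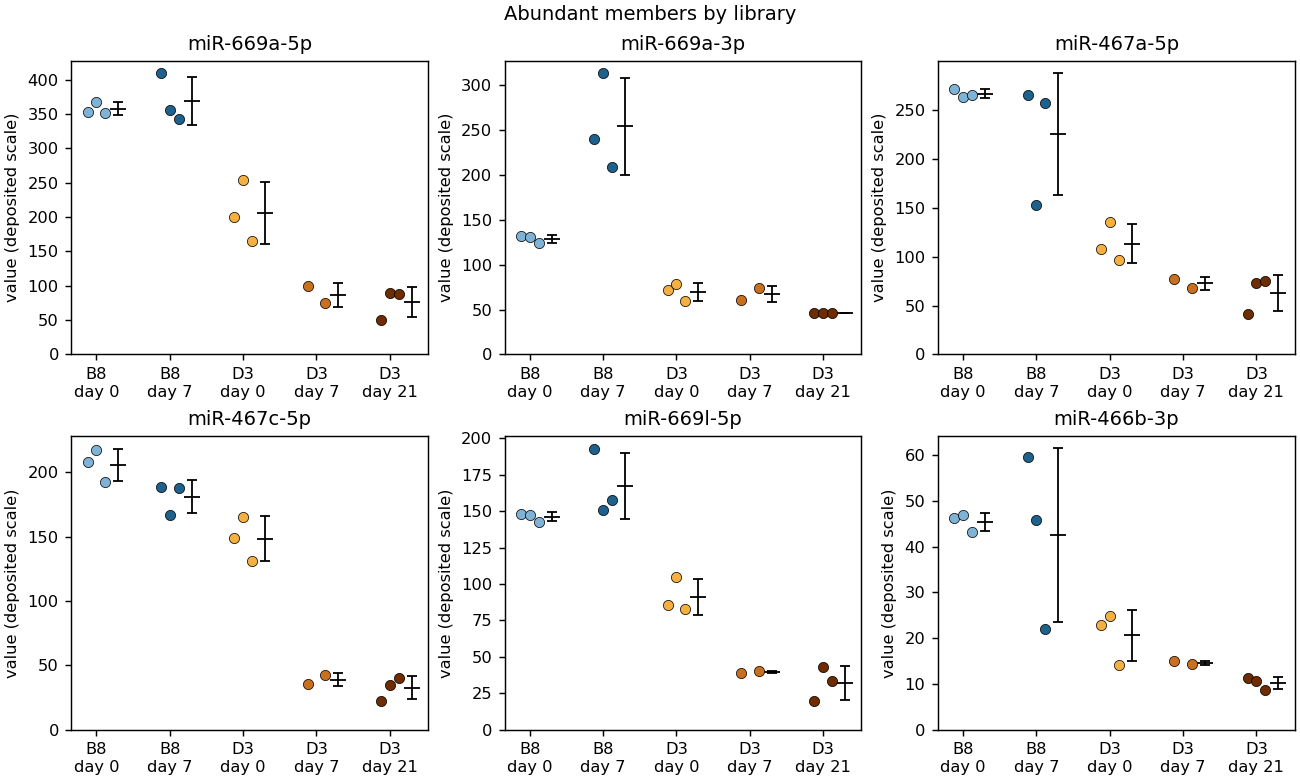
Values on the deposited scale of 6 abundant members in each library (points, replicates in order from left to right), with the group mean and SD (black bars). Of the 6, miR-669a-3p has B8 day 7 libraries (209 to 313) farthest above B8 day 0 (123.6 to 132). All D3 day 7 and day 21 libraries lie below D3 day 0 for miR-669a-5p, miR-467a-5p, miR-467c-5p and miR-669l-5p. For miR-669a-3p and miR-466b-3p, D3 day 7 overlaps D3 day 0.

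In D3, 12 of the 42 tested members fell from day 0 to day 7 on the deposited scale and 0 rose, beside 6.91% of all rows lower and 70.4% higher. The median log2 change of the members was -0.55, against 2.25 for all rows. After median-of-ratios scaling 35 of 42 fell and 0 rose, beside 27.1% of all rows lower and 36.1% higher, and the medians were -2.43 and 0.27. By number, 14 of 15 miR-669, 7 of 8 miR-467, 12 of 16 miR-466 and 2 of 3 miR-297 members fell on that scale. All 12 that fell as deposited were among the 35. By limma none was higher at an unadjusted p under 0.05 on either scale, and edgeR on the recovered reads called 38 lower and 0 higher, beside 30.7% and 32.1% of all rows. The fall was not particular to the members. Of the 13 tested rows of the miR-290 cluster, 11 fell as deposited and 12 after median-of-ratios scaling, and 0 rose.

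miR-467c-5p showed the clearest fall among abundant members. It stood at 149, 165 and 131 in the D3 day 0 libraries, 35.2 and 42.2 in D3 day 7, and 22.6, 34.5 and 40.2 in D3 day 21 on the deposited scale. The later days lay far below day 0 and overlapped each other, and the change to day 7 was -1.92 (log2, SE 0.28, limma adjusted p = 8.56e-07) as deposited and -4.20 (SE 0.20) after median-of-ratios scaling. miR-669a-5p stood at 200, 253 and 165 in day 0, 99.5 and 74.4 in day 7, and 50.5, 89.1 and 88.3 in day 21, and its log2 change to day 7 was -1.23 (SE 0.28, limma adjusted p = 0.000361). miR-669l-5p behaved alike, at 85.4, 105 and 82.5 in day 0 and 39.2 and 40.1 in day 7 (log2 change -1.18, SE 0.30, limma adjusted p = 0.00094).

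The 3p arm of miR-669a and miR-467a-5p stood on the other side of the threshold as deposited. miR-669a-3p stood at 71.4, 78.2 and 59.1 in D3 day 0 and 61.1 and 73.7 in D3 day 7. These overlap, with a log2 change of -0.04 (SE 0.26, limma adjusted p = 0.893), whereas after median-of-ratios scaling it fell by 2.32 (SE 0.22, limma adjusted p = 8.88e-08). miR-467a-5p stood at 108, 135 and 96.6 in day 0 and 77.5 and 68.0 in day 7, without overlap, and its log2 change of -0.63 (SE 0.30) missed the threshold as deposited (limma adjusted p = 0.0599, or 0.0360 to 0.0438 without B8 day 7 replicate 2, D3 day 0 replicate 3 or D3 day 21 replicate 1) and passed at -2.91 after median-of-ratios scaling (limma adjusted p = 4.49e-09).

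Members of miR-466 fell in D3 too. miR-466c-5p stood at 14.5, 23.7 and 23.3 in D3 day 0 and 8.61 and 10.7 in D3 day 7 (log2 change -1.02, SE 0.34, limma adjusted p = 0.00929), a separation at modest levels that missed the threshold without D3 day 7 replicate 2 (limma adjusted p = 0.0819). miR-466d-5p (10511967 to 10512062) stood at 10.9, 8.62 and 5.83 in day 0 and 2.35 and 0 in day 7, where 3 reads were worth 2.15 to 2.35. Its log2 change of -2.90 (SE 0.58, limma adjusted p = 9.13e-05) rests on at most 3 reads at day 7 and depends on the pseudocount and on single libraries: it was -1.62 without D3 day 7 replicate 3 and -4.18 without D3 day 7 replicate 2. The same limit holds for miR-466o-3p, which had no read in either D3 day 7 library and stood at 1.55, 5.93 and 0.833 in day 0. miR-669h-5p, one of the B8 risers, stood at 4.14, 7.01 and 6.66 in D3 day 0 and 0.783 and 1.43 in D3 day 7, with a log2 change of -2.01 (SE 0.51, limma adjusted p = 0.00109) and 1 or 2 reads at day 7. miR-466b-3p stood at 22.8, 24.8 and 14.2 in day 0 and 14.9 and 14.3 in day 7, which overlap, and did not pass as deposited (limma adjusted p = 0.292).

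Day 21 of D3 was compared with the same day 0 libraries as day 7, so these results are not independent. As deposited 18 of 42 members fell and 0 rose, beside 10.2% of all rows lower and 65.3% higher, and after median-of-ratios scaling 34 fell and 0 rose, beside 25.5% lower and 38.2% higher. The median log2 change of the members was -0.90 as deposited and -2.12 after median-of-ratios scaling, against 1.69 and 0.41 for all rows. No member was higher at an unadjusted p under 0.05 by limma on either scale, and edgeR called 37 lower and 0 higher, beside 27.3% and 37.8% of all rows. Of the 13 tested rows of the miR-290 cluster, 12 fell and 0 rose on each of the 2 limma scales. miR-467c-5p fell by 2.21 (log2, SE 0.25, limma adjusted p = 1.68e-08) and miR-669a-5p by 1.46 (SE 0.25, limma adjusted p = 1.28e-05). At day 21 miR-669a-3p passed as well, at 45.8, 45.7 and 45.7 against 71.4, 78.2 and 59.1 in day 0 (log2 change -0.59, SE 0.24, limma adjusted p = 0.0268), though not without D3 day 0 replicate 1 (limma adjusted p = 0.0611), D3 day 0 replicate 2 (0.0817) or D3 day 21 replicate 2 (0.0634), as did miR-467a-5p (log2 change -0.87, limma adjusted p = 0.00513).

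Between D3 day 7 and day 21, a comparison that shares libraries with both above, the direction depended on the scaling. As deposited 2 members fell and 0 rose, beside 31.5% of all rows lower and 8.06% higher. They were miR-669f-5p, at 19.6 and 15.7 in day 7 and 8.30, 10.03 and 8.75 in day 21, and miR-466e-3p, at 5.48 and 3.58 against 2.32, 1.77 and 0.795. After median-of-ratios scaling 3 rose and 0 fell, beside 16.5% higher and 10.6% lower: miR-467d-5p (log2 change 0.89, limma adjusted p = 0.0162), miR-467e-5p (0.86, limma adjusted p = 0.0123) and miR-669o-5p (0.75, limma adjusted p = 0.0188). miR-467d-5p is named here after its values were seen, to account for the count of 3. At an unadjusted p under 0.05, limma gave 3 lower and 0 higher as deposited and 7 higher and 0 lower after median-of-ratios scaling, and edgeR called 6 higher and 0 lower, beside 26.9% and 14.2% of all rows. The limma count of 3 that rose after median-of-ratios scaling was 0 without D3 day 7 replicate 3, without D3 day 7 replicate 2 or D3 day 21 replicate 2 it was 1, and without D3 day 21 replicate 1 it was 6. The count of 2 that fell became 0 without either D3 day 7 replicate and 1 without D3 day 21 replicate 2 or 3, B8 day 0 replicate 1 or D3 day 0 replicate 1.

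**Figure D3:**
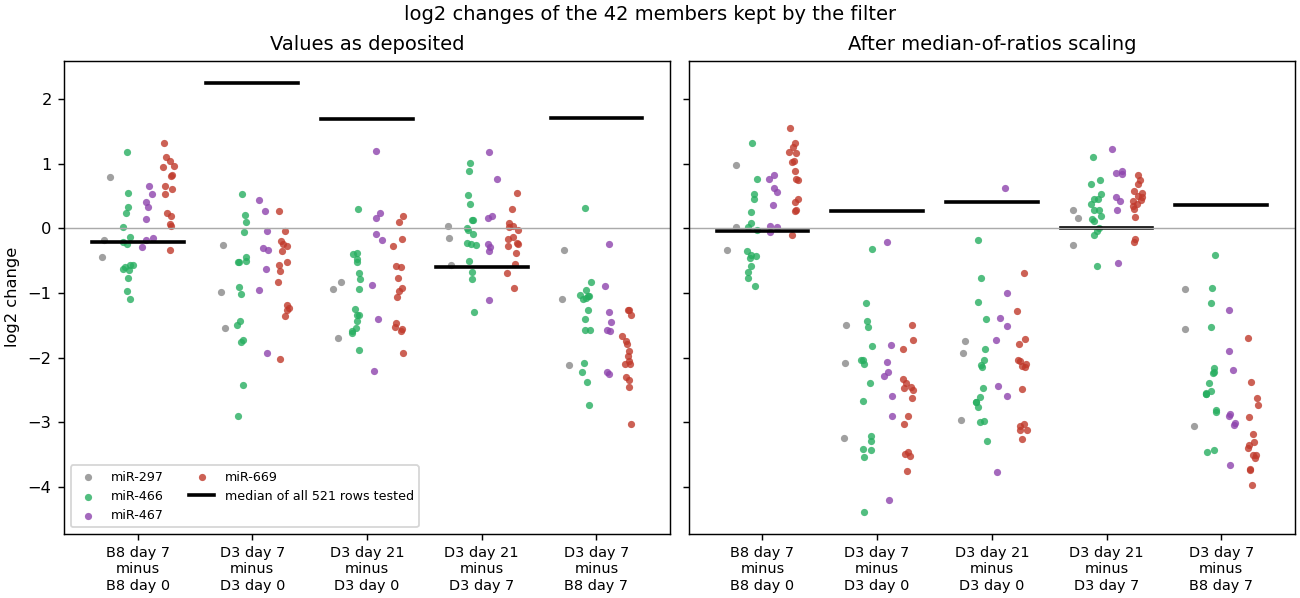
The log2 change of each of the 42 tested members, coloured by number, in 5 comparisons (columns), as deposited (left) and after median-of-ratios scaling (right), with the median of all 521 rows as a black bar. The members lie on both sides of that median in B8 day 7 minus day 0 and below it in the comparisons of D3 day 7 or day 21 with D3 day 0 or B8 day 7, except miR-467e-3p (0.63 against a median of 0.41) in D3 day 21 minus D3 day 0 on the right.

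The lines were compared at each of the 2 shared days. At day 0 the direction flipped with the scaling: as deposited 14 members were lower in D3 than in B8 and 0 higher, beside 46.1% of all rows lower and 0.960% higher, and after median-of-ratios scaling 0 were lower and 2 higher, beside 15.9% lower and 7.68% higher. At an unadjusted p under 0.05 limma gave 16 lower and 0 higher as deposited and 0 lower and 4 higher on the other scale, and edgeR called 0 lower and 1 higher, beside 15.4% and 7.49% of all rows. The count of 14 was 9 without B8 day 0 replicate 1 or replicate 3, and 5 without D3 day 0 replicate 3. miR-669a-5p shows the flip, with a log2 difference of -0.82 as deposited (limma adjusted p = 0.00882, or 0.0533 without D3 day 0 replicate 3) and 0.24 after median-of-ratios scaling (limma adjusted p = 0.378). The 2 higher on the second scale, of which 0 remained without B8 day 0 replicate 2 or D3 day 0 replicate 3, were miR-669f-5p (0.77, limma adjusted p = 0.0153) and miR-467c-5p (0.58, limma adjusted p = 0.0212).

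At day 7 all scales gave 1 direction. As deposited 28 of 42 members were lower in D3 than in B8 and 0 higher, beside 9.21% of all rows lower and 66.0% higher, and after median-of-ratios scaling 33 were lower and 0 higher, beside 16.7% and 24.8%. No member was higher at an unadjusted p under 0.05 by limma on either scale, and edgeR called 37 lower and 0 higher, beside 21.7% and 19.8% of all rows. The sum was 3.75-fold lower in D3 as deposited, 16.9-fold lower as a percent of the column total and 10.4-fold lower both outside miR-10a and miR-10b and after median-of-ratios scaling. By number, 13 of 15 miR-669, 5 of 8 miR-467, 9 of 16 miR-466 and 1 of 3 miR-297 members were lower as deposited. miR-669a-5p was lower by a log2 difference of -2.09 (SE 0.28, limma adjusted p = 7.75e-07) and miR-669a-3p by -1.89 (SE 0.26, limma adjusted p = 1.25e-06). miR-669o-3p stood at 17.2, 34.7 and 24.7 in B8 day 7 and 3.92 and 4.29 in D3 day 7, a log2 difference of -2.45 (SE 0.41, limma adjusted p = 1.35e-05). The miR-290 cluster was lower in D3 too, in 11 of its 13 tested rows as deposited and in 13 after median-of-ratios scaling, with 0 higher.

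The difference between the lines in their change to day 7 was tested directly as an interaction. As deposited 11 members changed to a lower value in D3 than in B8 and 0 to a higher one, beside 2.50% of all rows lower and 71.8% higher, so that 11 of the 13 rows called lower were members. After median-of-ratios scaling the counts were 31 and 0, beside 12.5% and 20.7%. No member was higher at an unadjusted p under 0.05 by limma on either scale, and edgeR called 36 lower and 0 higher, beside 14.8% and 15.7% of all rows. Members were 31 of 65 rows called lower after median-of-ratios scaling, 34 of 107 with equal column totals and 36 of 77 by edgeR. The median over the members was -0.85 as deposited and -2.86 after median-of-ratios scaling, against 2.64 and 0.49 over all rows. For miR-669a-5p the difference of the changes was -1.28 (log2, SE 0.38, limma adjusted p = 0.00412), and for miR-669a-3p it was -0.998 (SE 0.35, limma adjusted p = 0.0143, or 0.0756 without D3 day 7 replicate 2). For miR-467a-5p it was -0.34 (SE 0.40, limma adjusted p = 0.449) as deposited and -2.85 (SE 0.30, limma adjusted p = 7.59e-07) after median-of-ratios scaling. Without D3 day 7 replicate 2, the count of 11 was 7. Among the 13 tested rows of the miR-290 cluster, 2 were called higher and 1 lower in this interaction as deposited, but 0 higher and 11 lower after median-of-ratios scaling and 0 higher and 12 lower both with equal column totals and by edgeR, so lower calls on those scales were not particular to the members. The ESC and differentiation miRNAs given above moved between the same groups, and their part in the members' differences was not tested.

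With column totals set equal, which weighs the miR-10a and miR-10b rows most, the D3 members were again called in 1 direction against day 0. At day 7, 37 of 42 were lower and 0 higher, beside 44.7% and 21.1% of all rows, and at day 21, 35 were lower and 0 higher, beside 30.3% and 34.0%. From day 7 to day 21 of D3, 16 were higher and 0 lower, beside 38.0% and 2.11%. Between D3 and B8, 3 were higher and 0 lower at day 0, beside 9.21% and 12.5%, and 0 were higher and 33 lower at day 7, beside 7.87% and 23.4%. The interaction called 34 lower and 0 higher, beside 20.5% and 9.98%.

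The 3p arm held a larger share of miR-669a reads at the later days in both lines, and this share needs no scaling between libraries because both arms are read in the same library. The 3p row held 27.2%, 26.3% and 26.0% of miR-669a reads in B8 day 0 and 37.0%, 46.8% and 37.8% in B8 day 7. The corresponding D3 values were 26.3%, 23.6% and 26.4% in day 0, 38.0% and 49.8% in day 7, and 47.6%, 33.9% and 34.1% in day 21. Every later library lay above every day 0 library of its line, with means of 40.5 ± 5.4% against 26.5 ± 0.64% in B8 (SD, n = 3 each) and 43.9 ± 8.3% (n = 2) and 38.5 ± 7.8% (n = 3) against 25.4 ± 1.6% (n = 3) in D3. The thinnest of these shares rested on 205 reads, and its 95% Wilson interval ran from 31.7% to 44.9%. The copy Mir669a-3 has a 3p row listed apart, with 30 reads in all libraries, which these shares leave out. Over the whole list the 3p share was 16.7 ± 0.33% in B8 day 0, 22.3 ± 5.6% in B8 day 7, 14.8 ± 0.92% in D3 day 0, 24.0 ± 1.4% in D3 day 7 and 20.6 ± 4.1% in D3 day 21.

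B8 day 7 replicate 2 stood apart, with 28.7% of the list on 3p arms against 20.4% and 17.9% in replicates 1 and 3. Without it, the B8 day 7 mean was 19.1% for the list and 37.4% for miR-669a. With miR-669a left out, the list's 3p share was 12.7 ± 0.64% in B8 day 0 and 13.5 ± 4.9% in B8 day 7, whose SDs overlap, or 10.95% without that library, and 10.54 ± 1.2%, 15.4 ± 1.1% and 13.6 ± 2.6% in D3 days 0, 7 and 21. Of 18 member hairpins with both arms listed and at least 100 reads, the 5p share was lower without overlap in 3 at B8 day 7, in 6 at D3 day 7 and in 5 at D3 day 21, each against day 0 of the line. Of all 186 such hairpins in the table, 14.5%, 24.2% and 23.1% did the same, so the members' counts were near those of all miRNAs. The other way, the 5p share was higher without overlap in 0 of the 18 at B8 day 7. It was higher in 1, miR-669o, at D3 day 7 and at D3 day 21. The 5p share of miR-669o was 84.3%, 83.3% and 81.25% in D3 day 0, and 86.8% and 86.7% in day 7. It was 86.7%, 87.04% and 88% in day 21, and the thinnest D3 day 0 share rested on 32 reads. miR-466b, which gave mainly 3p reads in every group, was among the hairpins with a lower 5p share at the later days. Its 5p share was 20.2%, 16.7% and 19.4% in B8 day 0 and 13.6%, 6.82% and 15.8% in B8 day 7, and 20%, 25.8% and 32% in D3 day 0 against 9.52% and 16.7% in day 7 and 19.0%, 18.2% and 12% in day 21. No later library overlapped day 0 of its line, but the gaps were narrow and each share rested on few 5p reads, at most 21 in a library. miR-467c and miR-669l gave almost only 5p reads, with group means of 99.5% to 100%.

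**Figure D4:**
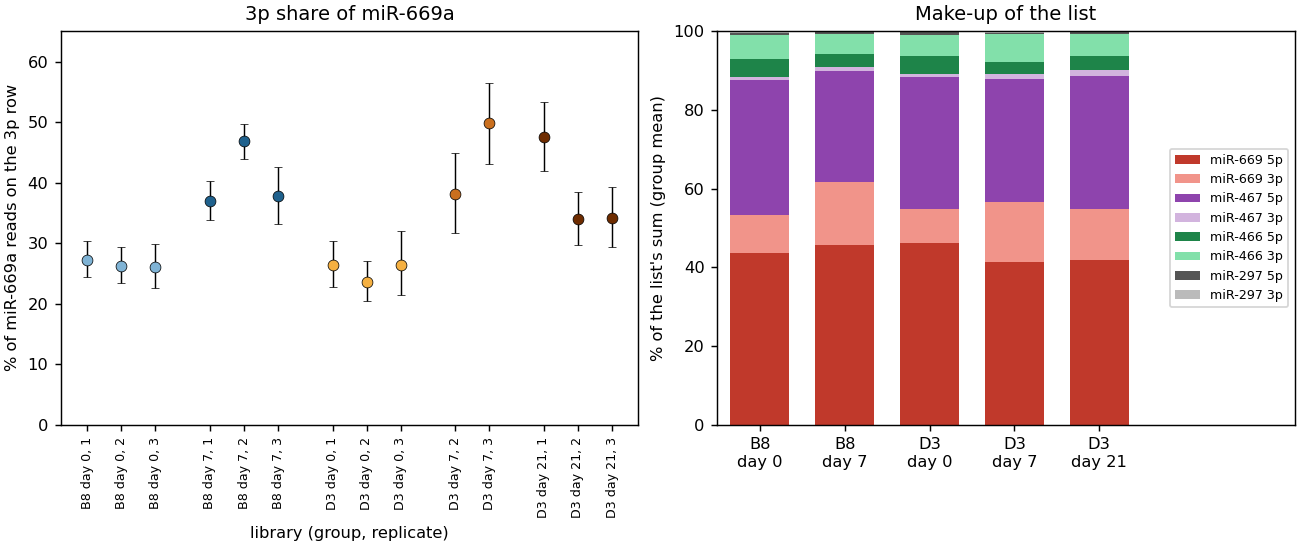
Left, percent of miR-669a reads on the 3p row in each library with 95% Wilson intervals (counting error only), where all libraries of day 7 and day 21 lie above those of day 0 in their line. Right, mean make-up of the list's summed value by number and arm in each group, where the 3p part of miR-669 is wider in the later groups and miR-669 is widest in B8 day 7.

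Place along the intron gave no single order of change. Of the members tested, 26 have by name exactly 1 annotated precursor, in Sfmbt2. Most of these lie at the ends of the cluster, since its middle is filled by repeated copies. Across them the Spearman rho between distance from the first precursor and the log2 change after median-of-ratios scaling was 0.01 in B8 day 7, -0.31 in D3 day 7 and -0.12 in D3 day 21, each against day 0, and among the 13 with at least 100 reads it was 0.21, -0.21 and -0.01. These are descriptions across members of shared libraries. miR-669f-5p at the first end and miR-669h-5p at the last changed by 1.26 and 1.33 in B8 day 7. Both are B8 risers named above, and the call of miR-669h-5p as deposited depended on single libraries. The other members within 2.3 kb of the first precursor changed by 0.41 to 1.16 in B8 day 7 and were not called.

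**Figure D5:**
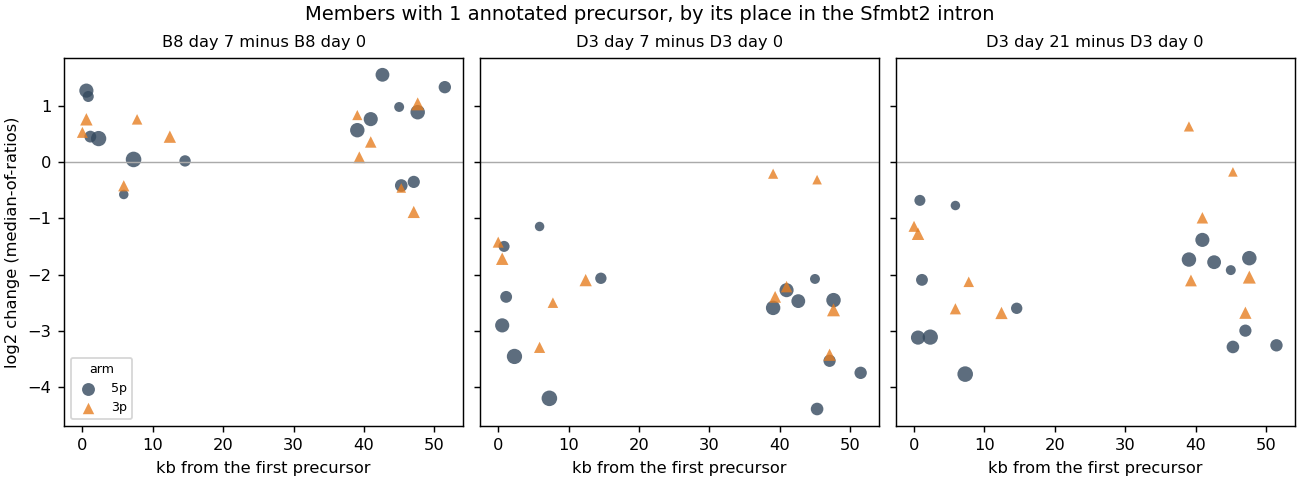
The log2 change after median-of-ratios scaling of the 26 members with 1 annotated precursor against the distance of that precursor from the first one (kb), in 3 comparisons with day 0; larger symbols are more abundant members, circles are 5p arms and triangles 3p arms. No single trend with distance is seen, and in the D3 panels all points but 1 at day 21 (miR-467e-3p) lie below 0.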

How the data were processed

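Small RNA libraries of 2 mouse ESC lines were analysed. The authors deposited a table of signal values per mature miRNA, titled as TMM-normalized; the submitters' processing notes name CASAVA, FastQC, Bowtie, Partek and mm10, without versions. Rules for reads that fit several miRNAs are not given in the sources used here. Dividing by the worth of 1 read gave whole reads, within 0.01 read, for 100% of the deposited values worth 1000 reads or fewer in each library. The members, lists and alternatives were chosen with earlier results of these data known.

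log2(value + 0.48), where 0.48 is 2 in 1e6 of the mean column total, was fitted with limma 3.58.1 (R 4.3.3; 5 group means, 9 residual degrees of freedom) on rows averaging at least 5 in 1e6 of the column total, in 2-sided tests of 7 comparisons. Because values are not counts as deposited, edgeR 4.0.16 (quasi-likelihood, TMM) on recovered reads was an alternative; over all 521 rows it called 265 in B8 day 7, 327 in D3 day 7 and 339 in D3 day 21, each against day 0. Other alternatives were median-of-ratios scaling, equal column totals, a pseudocount of 10 in 1e6, no filter, a replicate block and leaving out each library. Scripts were tested on simulated data. Named members were the 3 most abundant of each number and arm, and up to 3 each way with the largest change called alike on both scales in each comparison; further names are said to be chosen after their values were seen. A grouping by shared seed was not made, with sequences for 2 members. Folds on the log2 scale understate changes of low rows. Member reads per library ranged from 661 to 3370.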

Additional observations from a re-analysis of the deposited data

Results flagged for a closer look

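The change from day 0 to day 7 differed between D3 and B8, by limma's interaction test on the deposited scale, for 5 members whose values are printed here. The difference (D3 change minus B8 change, log2) was -1.28 for miR-669a-5p (limma adjusted p = 0.00412), -0.998 for miR-669a-3p (limma adjusted p = 0.0143), -1.74 for miR-467c-5p (limma adjusted p = 0.000189), -3.12 for miR-669h-5p (limma adjusted p = 0.000285) and -2.26 for miR-466d-5p (limma adjusted p = 0.0123). miR-467c-5p fell in D3 and did not pass in B8, whereas miR-669h-5p was called lower in D3 and higher in B8. The B8 call of miR-669h-5p missed the threshold with equal column totals and without any 1 of 10 of the 14 libraries. After median-of-ratios scaling the 5 differences were -3.79, -3.51, -4.24, -5.07 and -3.97 in the same order. miR-669h-5p and miR-466d-5p rest on at most 3 reads in either D3 day 7 library, and miR-466d-5p did not pass without D3 day 7 replicate 3 (-0.98, limma adjusted p = 0.235). miR-669a-3p did not pass without D3 day 7 replicate 2 (-0.86, limma adjusted p = 0.0756).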

How the results depend on the processing

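Scaling moved the counts most, and the cause was not tested. Members called as deposited, then after median-of-ratios scaling, with equal column totals and by edgeR were as follows. In B8 day 7, 4, 8, 3 and 11 were higher and 0, 0, 4 and 0 lower than at day 0. In D3, 12, 35, 37 and 38 were lower at day 7 and 18, 34, 35 and 37 at day 21 than at day 0. From D3 day 7 to day 21, 0, 3, 16 and 6 were higher and 2, 0, 0 and 0 lower. Between the lines at day 0, 0, 2, 3 and 1 were higher and 14, 0, 0 and 0 lower in D3. The interaction called 11, 31, 34 and 36 lower. A pseudocount of 10 in 1e6 of the mean total gave 2 lower in B8 day 7 and 1 lower from D3 day 7 to day 21, as did no filter for the latter (1).

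Leaving out 1 library at a time gave 3 to 5 higher and 0 to 1 lower in B8 day 7, 9 to 15 lower in D3 day 7, 12 to 20 lower in D3 day 21, 0 to 1 higher and 0 to 2 lower from D3 day 7 to day 21, 5 to 16 lower in D3 at day 0, 20 to 34 lower in D3 at day 7, and 7 to 13 lower in the interaction. After median-of-ratios scaling, alternatives added after seeing the data, it gave 0 to 6 higher from D3 day 7 to day 21, 0 to 3 higher in D3 at day 0, and 0 to 1 lower in B8 day 7. An arm left with 1 library is assumed to vary like the other groups.

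The summed percent moved outside miR-10a and miR-10b to 1.99 in B8 day 7, 0.191 in D3 day 7 and 0.222 in D3 day 21, and the deposited sums, on another unit, were 1666, 1918, 953, 511 and 436 in B8 days 0 and 7 and D3 days 0, 7 and 21.

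Sign changes (log2) were these. In B8 day 7, miR-669a-5p was -0.27 with equal totals, and miR-467c-5p was 0.043 after median-of-ratios scaling and 0.032 by edgeR. From D3 day 7 to day 21, miR-669f-5p was 0.77 and miR-466e-3p 0.21 with equal totals, and miR-669o-5p was -0.013 with a replicate block. Between the lines at day 0, after median-of-ratios scaling, with equal totals and by edgeR, miR-669a-5p was 0.24, 0.42 and 0.16, miR-467c-5p 0.58, 0.76 and 0.49, and miR-669f-5p 0.77, 0.96 and 0.71. Without 1 library, miR-669a-5p ranged from -0.032 to 0.095 in B8 day 7, miR-669a-3p from -0.18 to 0.092 in D3 day 7, and miR-467e-5p from -0.0036 to 0.40 and miR-669o-5p from -0.13 to 0.21 from D3 day 7 to day 21.

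Correlations of deviations were -0.13 to 0.14 for same-numbered libraries (2 of 26 above 0.1) and -0.16 to 0.18 for others (6 of 52). No pairing by number was seen. With so few libraries in a group, this cannot show whether same-numbered libraries share a culture or a run. With the replicate block, 3 members were higher in B8 day 7, 13 lower in D3 day 7 and 19 lower in D3 day 21. Few reads limit the 22 members left untested and the D3 day 7 values, where 3 reads were worth 2.15 to 2.35.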
